A study of Rattus norvegicus with 60 samples.

Results

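The genes described here are 10 that move, store or regulate iron in mammalian cells: the importers Tfrc, Slc11a1, Slc11a2 and Slc39a14, the ferrireductases Steap3 and Steap4, the ferritin subunits Fth1 and Ftl1, the exporter Slc40a1 and the hormone Hamp. Each was represented by the array probe set annotated with that symbol alone, taking the probe set of highest mean, and all 10 were found among the 18166 genes named in this way. Only Fth1 had a second such probe set. They were measured in 20 rats with haemophilia A, which lack working coagulation factor VIII. In 11 rats a bleed had been induced in the left knee, and 9 rats had undergone a sham procedure. All tissue was taken 24 h later. The 4 groups from the bled rats were the tissue inside the bled left knee, the tissue inside the uninjured right (contralateral) knee, and the popliteal lymph node of each side, with 11 arrays each. The sham groups were 7 right knees and 9 right nodes, because 2 sham knees gave too little RNA. Every animal carried haemophilia A, so no group shows a rat with normal clotting. The bled side was always the left, so side, needle injury and blood cannot be told apart in the comparison with the other knee. The sham samples were all from the right, so side and bleed cannot be told apart in comparisons of the bled side with sham either. Strain, sex and age are not given in the sources used here. Sham arrays are numbered C1 to C9 and bled rats K1 to K11 after their labels.

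Iron enters most cells as transferrin bound to the transferrin receptor, encoded by Tfrc. In the endosome it is reduced by STEAP-family enzymes and carried into the cytosol by DMT1, the product of Slc11a2, while ZIP14, the product of Slc39a14, takes up iron that is not bound to transferrin. Macrophages also recover iron from engulfed red cells: haem oxygenase opens the haem ring, NRAMP1 (Slc11a1) moves metal out of the phagosome, ferritin stores iron in a shell of heavy (Fth1) and light (Ftl1) chains, and ferroportin (Slc40a1) is the known cellular iron exporter. Hepcidin (Hamp), made mainly in the liver, binds ferroportin and has it degraded, and iron-regulatory proteins change the stability or translation of several of these transcripts. Blood in a joint delivers haemoglobin iron to the synovium, where iron deposits are a known feature of haemophilic joint disease.

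The RefSeq promoter sequences used here (build GRCr8) covered 6 of the 10 genes, namely Slc11a2, Slc40a1, Tfrc, Hamp, Steap3 and Steap4. Slc11a2 had 2 start sites and the others 1 each. The 250 bases before each start site were searched on both strands for TTCNNNGAA, the spaced palindrome bound by STAT factors, which carry interleukin-6 signals to the hepcidin gene, and for TGACNNNGC, a core that NRF2 with small MAF proteins can bind. The sequences of Hamp and Steap4 are shown because they were the 2 of these 6 genes with the STAT-type motif. Capitals mark the match, the bases run 5′ to 3′ on the gene's strand, and the last base lies just before the start site. The Hamp window is chr1:95300272-95300521, minus strand, with the match at -117 to -109. The Steap4 window is chr4:27054770-27055019, minus strand, with the match at -66 to -58.
Hamp: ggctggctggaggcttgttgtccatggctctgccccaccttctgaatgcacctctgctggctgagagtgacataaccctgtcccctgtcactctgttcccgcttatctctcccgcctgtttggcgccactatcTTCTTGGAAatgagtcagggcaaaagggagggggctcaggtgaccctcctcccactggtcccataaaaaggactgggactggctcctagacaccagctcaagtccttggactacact
Steap4: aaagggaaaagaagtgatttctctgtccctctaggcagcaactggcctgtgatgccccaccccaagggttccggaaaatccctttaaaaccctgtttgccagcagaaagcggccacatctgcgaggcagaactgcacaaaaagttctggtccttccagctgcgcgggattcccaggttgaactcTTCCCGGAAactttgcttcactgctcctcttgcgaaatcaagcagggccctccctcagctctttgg
The STAT-type motif occurred in 7.67% of all 33469 windows of this length. The second motif occurred in 10.1% of all windows and in 0 of the 6 genes. A match describes letters, not a bound site, and the expression data below do not test it.

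All values are deposited log2 intensities, on which a difference of 1 is a doubling, and arrays had medians between 5.64 and 5.94. Group differences were tested only between arrays for the same probe set. A few levels were also placed against those of other probe sets, without a test. Adjusted p values come from limma, with Benjamini-Hochberg adjustment over all 36685 probe sets, and a gene was called higher or lower at an adjusted p under 0.05. Differences are given ± SE. The labelled tissues carried their markers: 12 genes of synovial fibroblasts and lining had mean levels of 10.54 to 11.78 over the knee arrays, and 11 B and T lymphocyte genes had 10.17 to 10.73 over the node arrays. Mean levels of 8 skeletal muscle genes ranged from 5.738 to 12.51 between knees, so knee samples held differing amounts of muscle. The sham knee C5 was the lowest of its group for 7 of the 10 genes, and the sham node C9 likewise for 7.

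Compared with the other knee of the same rats, the bled knee had higher levels of all 4 importers and both ferritin chains 24 h after the bleed, with Slc11a2 at the threshold. The exporter Slc40a1 and the ferrireductases Steap3 and Steap4 were lower, and hepcidin was not called. This gave 6 genes higher, where 19.5% of all probe sets were, and 3 lower, where 15.2% were. The median difference over the 10 genes was 0.24, against 0.00 over all probe sets. For 5 genes the bled and contralateral arrays did not overlap, and the same held for 13.5% of all probe sets. As these are bulk tissue samples, more or fewer cells of a type and more or less RNA per cell cannot be told apart in any of these differences.

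**Figure D1:**
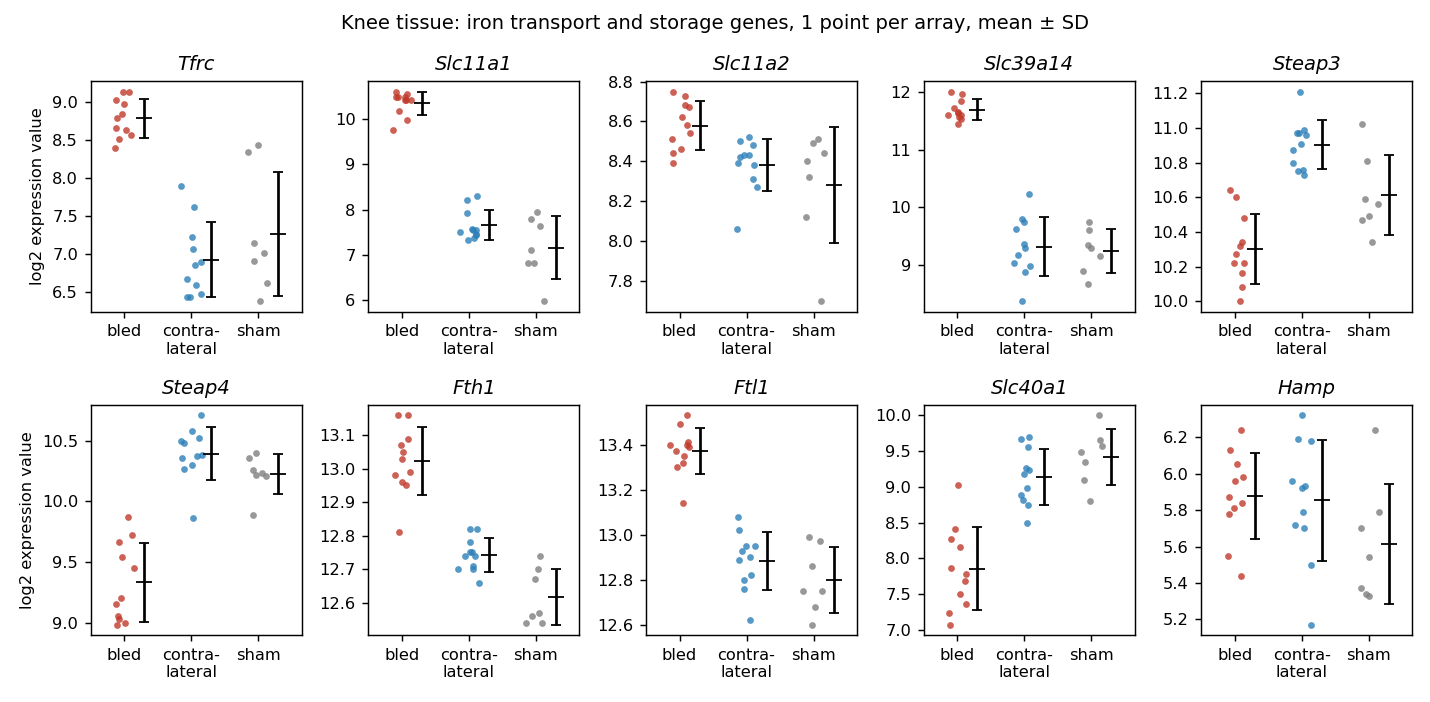
Log2 expression of the 10 genes in knee tissue, with 1 point per array (11 bled, 11 contralateral, 7 sham) and the mean ± SD beside each group; each panel has its own vertical scale, which does not start at 0. The bled arrays lie above every contralateral array for Slc11a1, Slc39a14, Tfrc and Ftl1 and below every contralateral array for Steap3.

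Slc11a1, whose product NRAMP1 is found in the phagosomes of macrophages and neutrophils, had the largest difference of the 10. Its bled knees ran from 9.76 to 10.59 (median 10.42), the contralateral knees from 7.33 to 8.30 (median 7.54) and the sham knees from 5.98 to 7.94 (median 7.11). All 11 bled knees were above every other knee. The bled side exceeded the contralateral side by 2.68 ± 0.17 (adjusted p = 7.96e-14), a 6.42-fold difference with a 95% interval of 5.03 to 8.20. Within rats the difference ran from 1.76 to 3.21. Against sham it was 3.18 ± 0.20 (adjusted p = 5.57e-14).

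Slc39a14, the importer ZIP14 for iron outside transferrin and also for zinc and manganese, showed the same separation. Bled knees had 11.45 to 12.01 (median 11.64), contralateral knees 8.37 to 10.23 (median 9.30) and sham knees 8.67 to 9.75 (median 9.30). The 11 bled knees were again above all 18 others, and they were closer together than the contralateral knees, with SDs of 0.18 and 0.51. The difference was 2.37 ± 0.16 against the other knee (adjusted p = 1.41e-13, 5.19-fold, 95% interval 4.15 to 6.48) and 2.45 ± 0.18 against sham (adjusted p = 1.68e-12).

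Tfrc, the receptor for transferrin-bound iron, is raised in dividing cells and in cells short of iron. It ran from 8.40 to 9.14 (median 8.79) in bled knees, from 6.44 to 7.90 (median 6.86) in contralateral knees and from 6.38 to 8.44 (median 7.01) in sham knees. Bled and contralateral arrays did not overlap, while the sham knees C6 (8.44) and C9 (8.35) stood well above the other 5 sham knees, which reached 7.14. The bled knee was higher by 1.86 ± 0.21 (adjusted p = 1.04e-08, 3.64-fold) than the contralateral knee and by 1.52 ± 0.24 (adjusted p = 4.04e-06) than sham. All 11 of the measured cell cycle genes were also higher in bled than in contralateral knees, with mean levels of 6.805 to 8.716 against 5.357 to 7.879; their part in the Tfrc difference was not tested.

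Slc11a2, encoding DMT1, which carries ferrous iron across the endosomal membrane, differed far less than its relative Slc11a1. Bled knees had 8.39 to 8.75 (median 8.58), contralateral knees 8.06 to 8.52 (median 8.42) and sham knees 7.70 to 8.51 (median 8.40), and the groups overlapped. It was higher on the bled side in 11 of 11 rats, by 0.01 to 0.42, and by 0.20 ± 0.08 on average (adjusted p = 0.047). That call was at the threshold: it was lost with quantile normalization (adjusted p = 0.164), with arrays centred on their medians (0.0545), with muscle content as a covariate (0.0832) and without any 1 of 16 of the 29 knee arrays. Against sham the difference was 0.30 ± 0.09 (adjusted p = 0.00753), not called after quantile normalization (adjusted p = 0.0576).

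The ferritin chains store iron in a hollow protein shell, and both transcripts lay near the top of the array's range. Ftl1, the light chain, ran from 13.14 to 13.53 (median 13.39) in bled knees, from 12.62 to 13.08 (median 12.90) in contralateral knees and from 12.60 to 12.99 (median 12.75) in sham knees. No bled knee overlapped with another group. The difference was 0.49 ± 0.06 against the other knee (adjusted p = 3.15e-08; 95% interval of the fold 1.29 to 1.53) and 0.57 ± 0.07 against sham (adjusted p = 2.11e-08).

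Fth1, the heavy chain that oxidises iron for storage, moved the same way and less. Its bled knees had 12.81 to 13.16 (median 13.03), its contralateral knees 12.66 to 12.82 (median 12.74) and its sham knees 12.54 to 12.74 (median 12.57). Only the lowest bled knee, K3 at 12.81, fell within the contralateral range, and none fell within the sham range. The bled knee was higher by 0.28 ± 0.05 (adjusted p = 5.46e-06) than the other knee and by 0.41 ± 0.05 (adjusted p = 9.78e-08) than sham. The second Fth1 probe set gave larger differences, 0.42 ± 0.05 (adjusted p = 5.33e-08) and 0.58 ± 0.06 (adjusted p = 1.86e-09), with no overlap in either comparison. Ferritin genes have near-identical processed copies in mammalian genomes, and probes may read these too; such bright probe sets may also understate a difference.

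Slc40a1 encodes ferroportin, the exporter that releases iron from macrophages to the blood. Bled knees ran from 7.07 to 9.03 (median 7.78), contralateral knees from 8.49 to 9.69 (median 9.18) and sham knees from 8.80 to 10 (median 9.48). The bled side was lower in 11 of 11 rats, by 0.66 to 1.77, although the group ranges overlapped through K2, whose bled knee at 9.03 was the highest of its group. Slc40a1 fell by 1.29 ± 0.19 against the contralateral knee (adjusted p = 1.6e-06, 2.44-fold lower) and by 1.57 ± 0.22 against sham (adjusted p = 5.48e-07).

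The ferrireductases reduce ferric iron so that it can be carried across membranes. Steap4, which also reduces copper and is expressed in fat and inflamed tissue, had 8.98 to 9.87 (median 9.20) in bled knees, 9.86 to 10.71 (median 10.38) in contralateral knees and 9.89 to 10.40 (median 10.23) in sham knees. The overlap with the contralateral knees was by 0.01, through K10 and K6, and there was none with sham. Steap4 fell by 1.06 ± 0.11 against the other knee (adjusted p = 1.1e-09, 2.09-fold lower) and by 0.89 ± 0.12 against sham (adjusted p = 3.95e-07). All 12 adipocyte genes also fell between contralateral and bled knees, from mean levels of 11.07 to 11.75 to mean levels of 8.357 to 9.80; their part in the Steap4 difference was not tested.

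Steap3, the endosomal ferrireductase of the transferrin cycle, ran from 10 to 10.64 (median 10.27) in bled knees, from 10.73 to 11.21 (median 10.91) in contralateral knees and from 10.34 to 11.02 (median 10.56) in sham knees. Bled and contralateral knees did not overlap, but the sham knees lay between them and overlapped with both. It fell by 0.60 ± 0.08 against the other knee (adjusted p = 3.61e-07) and by 0.31 ± 0.09 against sham (adjusted p = 0.00827), and the second call was lost when arrays were centred on their medians (adjusted p = 0.0888). Thus Steap3 and Tfrc, partners in the same uptake route, changed in opposite directions.

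Hamp, the hepcidin transcript, was near the middle of all probe sets in the knee. Bled knees had 5.44 to 6.24 (median 5.87), contralateral knees 5.17 to 6.32 (median 5.92) and sham knees 5.33 to 6.24 (median 5.54). It was higher on the bled side in 5 of 11 rats and differed by 0.02 ± 0.12 (adjusted p = 0.922), with a 95% interval of -0.23 to 0.28. At such dim levels background can hide a difference. Against sham it was 0.26 ± 0.14 higher (adjusted p = 0.146), a difference that was called with quantile normalization (adjusted p = 0.0452), with median centring (0.044) and without the sham knee C3 (0.0326). Hepatocyte genes stayed dim, with mean levels of 4.784 to 5.73 over 7 genes in all knees. Il6, the cytokine known to raise hepcidin in the liver, was higher by 5.75 ± 0.19 in bled than in contralateral knees (adjusted p = 2.9e-19); it was added here after its values had been seen.

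**Figure D2:**
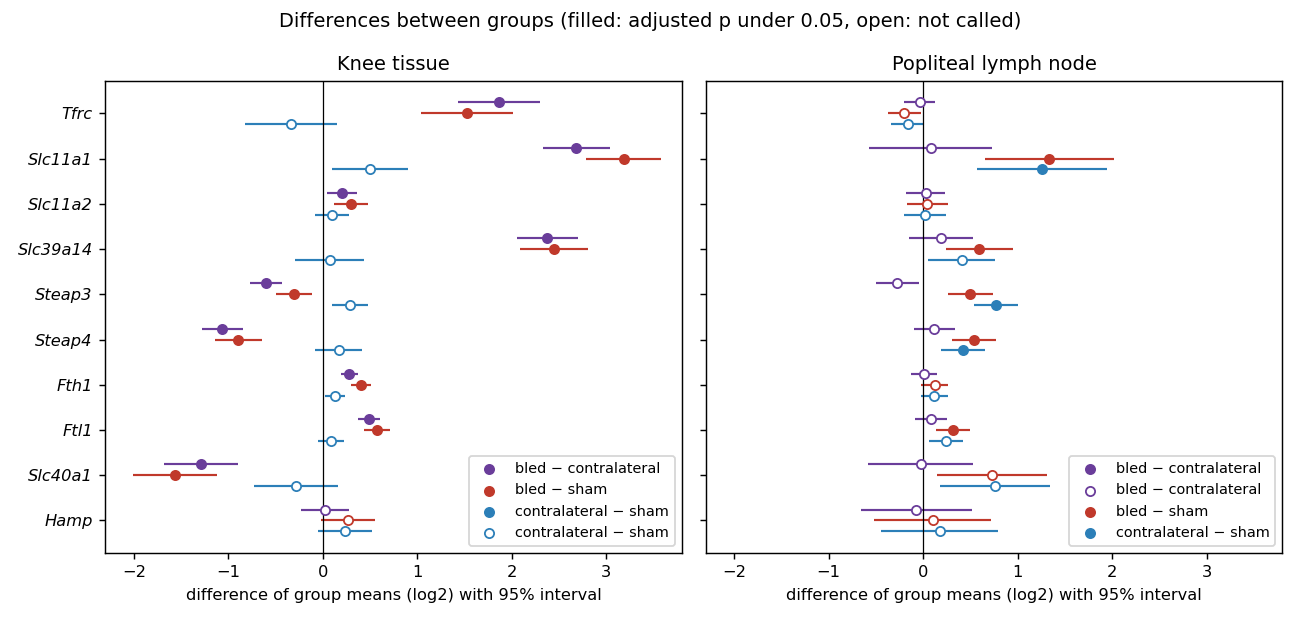
Differences between group means in knee (left) and node (right), in log2 units with 95% intervals; purple is bled minus contralateral, red bled minus sham and blue contralateral minus sham, and filled points have an adjusted p under 0.05. In the knee the purple and red points lie on the same side of 0 for every gene, whereas in the node every purple point is open and the filled points are all comparisons with sham.

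Against sham knees, 6 of the 10 genes were higher (19.9% of all probe sets) and 3 lower (18.8%), and these were the same genes in the same directions as against the contralateral knee. Both comparisons use the same bled arrays, so this is not a second measurement of the bled knees. The groups did not overlap for Slc11a1, Slc39a14, Fth1, Ftl1 and Steap4, and for 14.6% of all probe sets. Centring arrays on their medians changed the split over all probe sets from 7307 higher and 6908 lower to 8636 and 4933.

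Between contralateral and sham knees no difference in these genes passed the test. Here 0 of the 10 genes were called in the limma model, where 0.984% of all probe sets were higher and 0.831% lower (361 and 305, or 634 and 217 after median centring). The closest was Steap3, 0.29 ± 0.09 higher (adjusted p = 0.105), which was called when the sham knee C7 was left out (adjusted p = 0.0323). Slc11a1 was 0.50 ± 0.20 higher (adjusted p = 0.198), and the other 8 had adjusted p values from 0.217 to 0.886. Of the marker lists, 0 of 14 macrophage and 0 of 12 neutrophil genes were called between these knees, while 3 of 12 synovial fibroblast and lining genes were lower in contralateral knees and 1 of 7 hepatocyte genes was higher.

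**Figure D3:**
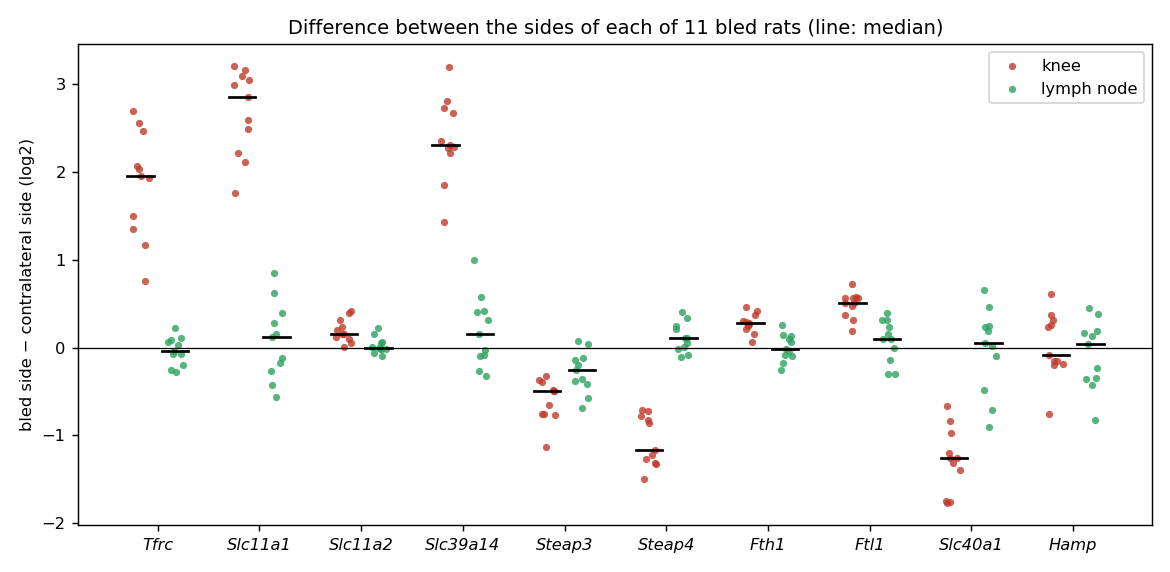
Bled side minus contralateral side of each of the 11 bled rats in log2 units, for knee tissue (red) and popliteal node (green), with a line at the median. In the knee 9 of the genes have all 11 points on one side of 0; in the node no gene does.

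Other genes of iron handling were examined through a list of 43, of which 37 were measured. Between bled and contralateral knees 12 were higher, 13 lower and 12 not called, with a median difference of 0.00, where 19.5% of all probe sets were higher and 15.2% lower. The counts for single roles rest on 3 to 10 genes each, and several lie near those shares. The role of haem iron release and haem transport had 3 of 6 genes higher and 0 lower. These were haem oxygenase Hmox1, 4.03 ± 0.16 higher, the haem carrier Slc48a1 (0.59 ± 0.07) and biliverdin reductase Blvra (0.40 ± 0.09). Among other metal carriers 2 of 5 were higher, Slc39a8, encoding the ZIP14 relative ZIP8, by 1.64 ± 0.11 and the mitochondrial importer Slc25a37 by 0.64 ± 0.13. Of 3 genes for extracellular iron and siderophore binding 1 was higher and 1 lower. The higher gene was Lcn2, whose product binds iron-loaded siderophores, by 2.19 ± 0.24. Of 3 genes for ferritin handling and iron chaperones 1 was higher and 0 lower, with the chaperone Pcbp1 higher by 0.29 ± 0.05.

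Enzymes that oxidise or reduce iron were split, 2 of 6 higher and 3 lower. Steap1 was higher by 1.58 ± 0.20, opposite to its relatives Steap3 and Steap4, while the ferroxidases Cp and Heph, which work with ferroportin in iron export, fell by 1.39 ± 0.12 and 1.12 ± 0.13. Of 10 regulators of iron balance 2 were higher and 6 lower. Bmp6, the signal that raises hepcidin when iron is plentiful, fell by 1.44 ± 0.17, and the hypoxia factor gene Epas1 fell by 0.62 ± 0.07. Hjv, a co-receptor of that signal and a gene of skeletal muscle and liver, fell by 2.01 ± 0.77 (adjusted p = 0.0426); skeletal muscle markers varied widely between the knees, and their part in it was not tested. Iron-sulfur cluster and haem synthesis had 1 of 4 genes higher and 3 lower, with Fech, which inserts iron into haem, lower by 0.48 ± 0.10.

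Against sham knees 17 of the 37 list genes were higher (19.9% of all probe sets) and 10 lower (18.8%), led again by Hmox1 (3.84 ± 0.18) and Lcn2 (2.49 ± 0.27), with all 5 metal carriers and 5 of 6 haem genes higher. Between contralateral and sham knees 2 were higher (0.984% of all probe sets) and 0 lower (0.831%): Cp by 0.57 ± 0.13 (adjusted p = 0.0175) and the lysosomal iron channel gene Mcoln1 by 0.27 ± 0.06 (adjusted p = 0.00548).

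Marker lists of cell types were also compared between bled and contralateral knees, where 19.5% of all probe sets were higher and 15.2% lower. The erythroid and skeletal muscle counts lie near or below those shares. Of 14 monocyte and macrophage genes 9 were higher and 2 lower than in contralateral knees, with mean levels of 10.13 to 10.76 against 9.535 to 10.22 (sham 9.089 to 9.836). Itgam (2.33), Cx3cr1 (2.44) and Ccr2 (2.10) were among those higher, while Vsig4, a gene of resident macrophages, fell by 2.13. Of 12 neutrophil genes 10 were higher and 1 lower, with mean levels of 7.383 to 9.731 against 5.953 to 8.058 (sham 5.713 to 6.169). Of 8 erythroid genes 0 were higher and 1 was lower, with mean levels of 5.61 to 8.082 and 6.014 to 7.815. Of 11 B and T lymphocyte genes 7 were higher and 0 lower, with mean levels of 6.494 to 7.098 against 5.566 to 6.164. Of 12 synovial fibroblast and lining genes 2 were higher and 7 lower, with mean levels of 10.54 to 11.22 against 11.07 to 11.56 (sham 11.37 to 11.78). Hepatocyte genes had 2 of 7 lower (4.784 to 5.163 against 5.111 to 5.71), and skeletal muscle genes 1 of 8 lower. The part of these cell types in the differences of the 10 genes was not tested.

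Each gene's closest partners among all others were found by Pearson correlation over the 29 knee arrays, which mix the groups and so mostly reflect the bled against the other knees. Slc11a1 varied most closely with Lilrb4 (r = 0.983), Igsf6 (0.982) and Csf3r (0.982), Slc39a14 with Sbno2 (0.98), Shmt2 (0.97) and Socs3 (0.969), and Slc40a1 with Sh2d4a (0.923), G0s2 (0.922) and Txnip (0.92). Ftl1 varied most closely with Mboat7 (0.959), Steap4 with Lrrn4cl (0.952) and Cdh11 (0.952), Tfrc with Memo1 (0.947), and Steap3 with Adgrg2 (0.898). The highest value for Fth1 was with Dck (0.95) and for Slc11a2 with Tmem120a (0.892). Hamp had no close partner, the highest being Kprp at 0.681.

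In the popliteal node, which drains the joint, the side of the bleed made no detectable difference to these genes. Between nodes of the bled and contralateral side 0 of the 10 were called by limma, and 0% of all probe sets were higher and 0% lower. In this comparison 860 of the 36685 probe sets had an unadjusted p under 0.05, fewer than chance alone would give if all arrays were independent. Both nodes of a rat were left unpaired in this model, although their deviations from group means correlated (mean r = 0.233). The count therefore cannot show that the sides were alike. The differences ran from -0.27 ± 0.11 for Steap3, lower on the bled side in 9 of 11 rats, to 0.19 ± 0.17 for Slc39a14. For Slc11a1 it was 0.08 with a 95% interval of -0.57 to 0.73.

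**Figure D4:**
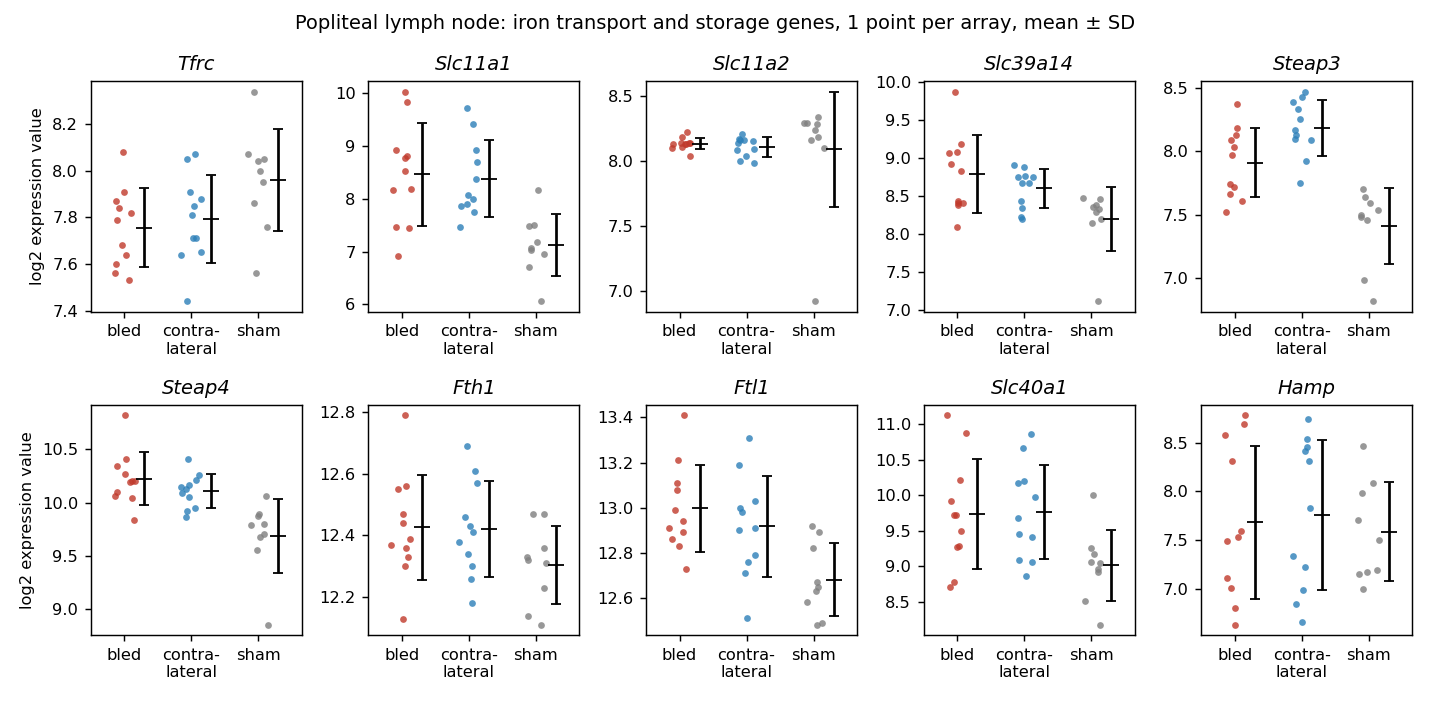
Log2 expression of the 10 genes in popliteal nodes, with 1 point per array (11 bled side, 11 contralateral side, 9 sham) and the mean ± SD beside each group; each panel has its own vertical scale, which does not start at 0. Bled-side and contralateral nodes cover similar ranges, and for Steap3 all 11 contralateral nodes lie above the 9 sham nodes.

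Nodes of both sides differed from sham nodes in some of the 10 genes. On the bled side 5 genes were higher (1.91% of all probe sets) and 0 lower (2.34%). On the contralateral side 3 were higher (2.22%) and 0 lower (2.81%). Both comparisons share the sham nodes. Median centring turned the split of all probe sets from 701 higher and 860 lower to 938 and 414 for the bled side, and from 813 and 1031 to 1052 and 442 for the contralateral side. Ranges of the 10 genes overlapped between groups except for Steap3 in contralateral nodes, against 0.188% and 0.251% of all probe sets without overlap.

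Steap3 had 7.52 to 8.37 (median 7.97) in bled-side nodes, 7.75 to 8.47 (median 8.17) in contralateral nodes and 6.82 to 7.70 (median 7.50) in sham nodes. It was higher than sham by 0.50 ± 0.12 on the bled side (adjusted p = 0.0122) and by 0.77 ± 0.12 on the contralateral side (adjusted p = 0.000395). Against sham the bled knee differed the other way, by -0.31 ± 0.09. Between the sides Steap3 was lower on the bled side in both tissues, with -0.60 in the knee and -0.27 in the node. Of these only the knee difference was called.

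Slc11a1 ran from 6.91 to 10.03 (median 8.53) in bled-side nodes, from 7.47 to 9.72 (median 8.08) in contralateral nodes and from 6.06 to 8.17 (median 7.06) in sham nodes. It was higher than sham by 1.34 ± 0.34 (adjusted p = 0.0194) and 1.26 ± 0.34 (adjusted p = 0.0269). The spread between rats was wide: both nodes of K8 (9.84 and 9.72) and of K11 (10.03 and 9.41) were the highest, and both nodes of K6 (6.91 and 7.47) the lowest. The contralateral call was lost without the contralateral node K8 (adjusted p = 0.0514) or K11 (0.0521) or the sham node C2 (0.0533).

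Steap4 ran from 9.84 to 10.82 (median 10.20) on the bled side, from 9.86 to 10.41 (median 10.13) on the contralateral side and from 8.85 to 10.06 (median 9.79) in sham nodes. It was higher than sham by 0.54 ± 0.11 (adjusted p = 0.00694) and 0.42 ± 0.11 (adjusted p = 0.027); the second call was lost without the contralateral node K11 (adjusted p = 0.0517). Against sham, Steap4 was thus higher in the nodes of both sides and lower in the bled knee.

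Ftl1 and Slc39a14 passed the threshold on the bled side alone. Ftl1 had 12.73 to 13.41 (median 12.94) there and 12.48 to 12.92 (median 12.65) in sham nodes, a difference of 0.32 ± 0.09 (adjusted p = 0.0357). Slc39a14 had 8.10 to 9.88 (median 8.83) and 7.12 to 8.48 (median 8.34), a difference of 0.59 ± 0.17 (adjusted p = 0.0469). The call was lost without any 1 of 8 of the 31 node arrays for Ftl1 and of 19 for Slc39a14. It was also lost for Ftl1 with quantile normalization (adjusted p = 0.0558) and for Slc39a14 when only the compared groups were fitted (0.113). On the contralateral side the differences were 0.24 ± 0.09 (adjusted p = 0.115) and 0.41 ± 0.17 (adjusted p = 0.184), and no difference between the sides was called.

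The sham nodes C2 and C9 weighed on these results, C9 being the lowest sham node for Slc11a1, Slc11a2, Slc39a14, Slc40a1, Tfrc, Steap3 and Steap4. Without both, Steap4 alone was called on the bled side and Steap3 alone on the contralateral side. Over all probe sets the counts were then 359 higher and 567 lower on the bled side, and 396 and 667 on the contralateral side. With the mean of the adipocyte genes as a covariate, Steap4 alone was called on the bled side and Steap3 alone on the contralateral side, and over all probe sets 228 higher and 162 lower on the bled side and 48 and 15 on the contralateral side. Without C2 and C9, the bled-side differences that lost their call were 1.16 for Slc11a1, 0.43 for Slc39a14, 0.29 for Ftl1 and 0.35 for Steap3. With the covariate they were 1.29, 0.58, 0.34 and 0.40, against 1.34, 0.59, 0.32 and 0.50 in the reported model. On the contralateral side Slc11a1 was 1.08 higher without C2 and C9, 1.18 with the covariate and 1.26 in the reported model. For Steap4 these values were 0.33, 0.31 and 0.42. Why these calls were lost was not tested.

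Slc40a1 was not called in any node comparison. It ran from 8.70 to 11.13 (median 9.72) in bled-side nodes, from 8.86 to 10.86 (median 9.68) in contralateral nodes and from 8.17 to 10.01 (median 9.05) in sham nodes. The differences from sham were 0.73 ± 0.29 (adjusted p = 0.146) and 0.76 ± 0.29 (adjusted p = 0.121).

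Tfrc, Fth1, Slc11a2 and Hamp were not called in any node comparison. Tfrc had 7.53 to 8.08 on the bled side and 7.56 to 8.34 in sham nodes, a difference of -0.20 ± 0.09 (adjusted p = 0.179), and the Fth1 difference was 0.12 ± 0.07 (adjusted p = 0.35). Slc11a2 varied little, from 8.04 to 8.22 on the bled side and from 7.98 to 8.21 on the contralateral side, but the sham node C9 had 6.92 where the next sham node had 8.10. Without C9, Slc11a2 was lower in contralateral than in sham nodes by 0.13 (adjusted p = 0.0427). Hamp was more variable in nodes than in knees, from 6.63 to 8.78 on the bled side, 6.66 to 8.74 on the contralateral side and 7.00 to 8.46 in sham nodes, and differed from sham by 0.10 ± 0.30 (adjusted p = 0.897) on the bled side.

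From the iron list, 4 of 37 genes were higher than sham on each side, where 1.91% of all probe sets were on the bled side and 2.22% on the contralateral side, and 0 were lower (2.34% and 2.81%). They were Lcn2 (0.89 ± 0.20 and 0.71 ± 0.20), Steap2 (0.65 ± 0.15 and 0.55 ± 0.15), Slc48a1 (0.56 ± 0.14 and 0.51 ± 0.14) and the cytosolic aconitase and iron-regulatory protein gene Aco1 (0.35 ± 0.10 and 0.43 ± 0.10). Of 14 macrophage genes 6 were higher on the bled side and 7 on the contralateral side, with mean levels of 9.413 to 10.25 and 9.451 to 10.23 against 8.701 to 9.471 in sham nodes. Vsig4 was higher by 1.61 and the haemoglobin scavenger receptor Cd163 by 1.21 on the bled side. Of 12 adipocyte genes 2 and 6 were higher, with mean levels of 7.392 to 9.282 and 8.515 to 9.205 against 7.444 to 9.081. Of 12 synovial fibroblast and lining genes 2 were higher on the bled side and 5 on the contralateral side, with mean levels of 8.80 to 9.325 and 8.917 to 9.301 against 8.502 to 8.972. Of 12 neutrophil genes 1 and 2 were higher. The part of macrophage, fibroblast and neutrophil content in the differences of the 10 genes was not tested.

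The response to the bled side was set against that of its node in a model of all 60 arrays, comparing the bled minus contralateral difference between knee and node. For 7 of the 10 genes the knee difference departed from the node difference, where 27.8% of all probe sets did. The knee difference exceeded the node difference by 2.60 ± 0.37 for Slc11a1 (adjusted p = 4.82e-08), 2.19 ± 0.23 for Slc39a14 (1.2e-11), 1.90 ± 0.23 for Tfrc (3.88e-10), 0.41 ± 0.10 for Ftl1 (0.000914) and 0.27 ± 0.08 for Fth1 (0.0044). It was below the node difference by the signed amounts of -1.26 ± 0.34 for Slc40a1 (0.0026) and -1.18 ± 0.15 for Steap4 (3.46e-09). Steap3, with differences of -0.60 in the knee and -0.27 in the node, gave -0.33 ± 0.14 (adjusted p = 0.0752), Slc11a2 gave 0.17 ± 0.13 (0.395) and Hamp 0.10 ± 0.32 (0.893). Between contralateral and sham samples, 0 of the 10 differed between tissues in the limma model (2.03% of all probe sets), and the closest was Steap3 at -0.48 ± 0.15 (adjusted p = 0.0797).

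Within the node groups Slc11a1 and Slc40a1 varied together from rat to rat. Over the 11 contralateral nodes Pearson's r was 0.955 and Spearman's rho 0.909 (permutation p = 2e-05 and 0.0004; adjusted 0.0054 and 0.045), and r was 0.901 without the 2 nodes farthest from the median of Slc11a1. Over the 11 bled-side nodes r was 0.916 and rho 0.866 (permutation p = 0.0002 and 0.00114; adjusted 0.018 and 0.0643), and r was 0.851 without the 2 farthest. These nodes come from the same 11 rats. Over the 9 sham nodes r was 0.774 and rho 0.60 (exact permutation p = 0.0255 and 0.0968; adjusted 0.287 and 0.495), and the value turned to -0.264 without the 2 farthest, so it rests on those nodes. In the knee r was 0.139 in bled, -0.517 in contralateral and 0.648 in sham samples, with adjusted p values of 0.883, 0.396 and 0.396 by permutation. These are 6 of 270 pairs of genes and groups, over which p values were adjusted.

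**Figure D5:**
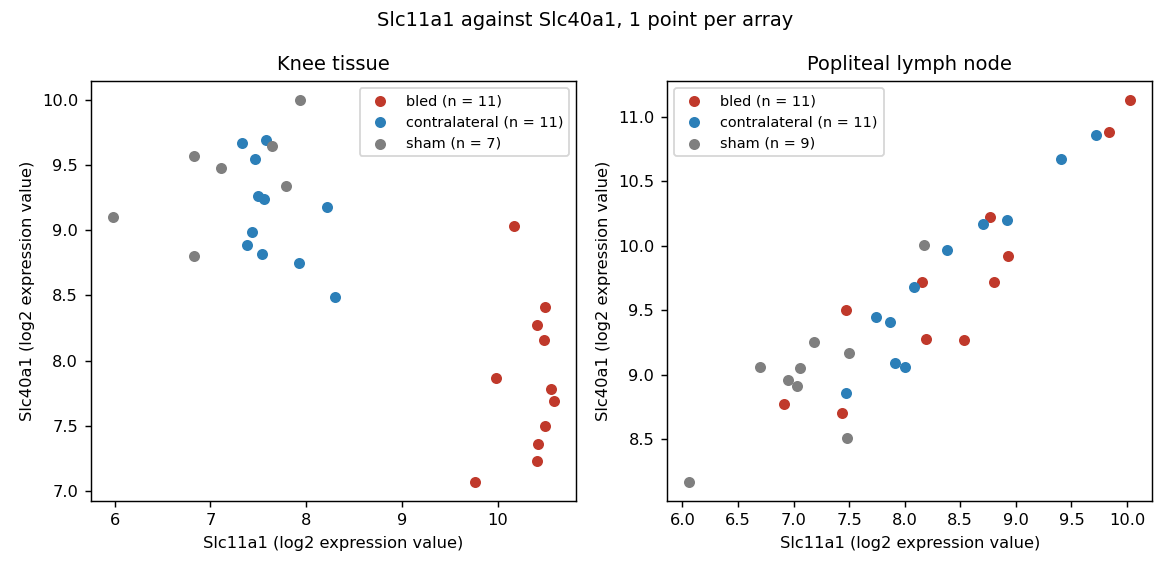
Slc11a1 (horizontal) against Slc40a1 (vertical) in log2 units, with 1 point per array, in knee tissue (left) and popliteal node (right). In the node the points of each bled-rat group rise along one line (r = 0.916 and 0.955), whereas in the knee the bled arrays lie at high Slc11a1 and low Slc40a1, with r = 0.139 among them.

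The third pair with an adjusted p under 0.05 by Pearson's r was Fth1 and Slc40a1 in the 11 bled-side nodes, with r = 0.904 and rho = 0.861 (permutation p = 5e-05 and 0.00119; adjusted 0.00675 and 0.0643), and r = 0.829 without the 2 farthest. It was 0.484 in contralateral nodes (permutation p = 0.133; adjusted 0.398). By Spearman's rho that pair missed the threshold, and 2 others passed it that did not by r: Fth1 and Slc11a1 in the 11 bled-side nodes (rho = 0.891, r = 0.848; permutation p = 0.0005 and 0.00087; adjusted 0.045 and 0.0536; r = 0.819 without the 2 farthest), and Slc11a2 and Steap3 in the 7 sham knees (rho = 1, r = 0.755; exact permutation p = 0.000397 and 0.0429; adjusted 0.045 and 0.31; r = 0.883 without the 2 farthest). Over all 31 node arrays, groups mixed, the genes that varied most closely with Slc11a1 were Hmox1 (r = 0.933), Mmp19 (0.921) and Slc48a1 (0.92), and the same 3 genes led for Slc40a1 (Slc48a1 at 0.869, Mmp19 at 0.868 and Hmox1 at 0.86). For Slc39a14 they were Hif1a (0.95), the oncostatin receptor gene Osmr (0.94) and Stat3 (0.912). Steap3 went most closely with Cdh13 (0.912), Steap4 with Plpp1 (0.922), Slc11a2 with Tmem87b (0.955), Ftl1 with Ndufb9 (0.868), Fth1 with P4hb (0.841), Tfrc with Sesn3 (0.766) and Hamp with Ighl12 (0.703).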

How the data were processed

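RNA from 29 knee and 31 node samples of 20 rats was measured on Affymetrix rat gene arrays, 1 array per sample. The authors deposited log2 expression values; the submitters' processing notes name RMA and Affymetrix Expression Console (version 1.4.46). The RMA options, the scan batches and any joint normalization of the tissues are not given in the sources used here. Such values compress differences of dim and saturated probe sets, and precision rests on 7 to 11 arrays per group.

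Symbols came from the array annotation: of 36685 probe sets, 18511 had 1 symbol and 575 several. A linear model of the 3 groups was fitted per tissue to all probe sets without filter, block or covariate in limma 3.58.1 (R 4.3.3), with Benjamini-Hochberg adjustment. Tissue differences were contrasts of contrasts over 60 arrays. Permutation tests used Python 3.11.15 and scipy 1.17.1. The genes, lists and tests were chosen with earlier results of these data known. Named genes were the 10 members, per role up to 3 called list genes with the largest change, the 3 genes most correlated with each member, and defining markers.

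Both sides of a rat are 1 animal, per the labels, so rat pairs bled and contralateral samples. Their deviations from group means correlated from -0.104 to 0.211 (mean 0.069) in knees and 0.121 to 0.324 (mean 0.233) in nodes. Alternatives were rat as a block, the compared groups alone, quantile normalization, median centring, a filter on dim probe sets, a trended robust prior, array weights, the mean of a symbol's probe sets, marker covariates and left-out arrays.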

Additional observations from a re-analysis of the deposited data

Results flagged for a closer look

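In 4 of the 20 combinations of gene and sham group examined, 1 array stood apart by its gap to the next array over the range of the group. Chance alone marks about 1 in 20 independent combinations, but the genes of a group share its arrays. Every flag fell on the sham knee C5 or the sham node C9. Over all probe sets these arrays also had the lowest mean correlation with their group, C5 at 0.957 (next 0.973) and C9 at 0.96 (next 0.976). The sham knee C5 was lowest for Steap4 (9.89, next 10.21), a gap of 0.627 of the range. The sham node C9 was lowest for Slc11a2 (6.92, next 8.10; 0.831 of the range), Slc39a14 (7.12, next 8.15; 0.757) and Steap4 (8.85, next 9.55; 0.579). The bled groups, with 11 arrays each, were not examined in this way.

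For 7 genes the bled minus contralateral difference departed between knee and node by the test of that difference itself in limma. The knee minus node values were 2.60 for Slc11a1, 2.19 for Slc39a14, 1.90 for Tfrc, 0.41 for Ftl1, 0.27 for Fth1, -1.26 for Slc40a1 and -1.18 for Steap4. The adjusted p was lowest for Slc39a14 (1.2e-11) and highest for Fth1 (0.0044).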

How the results depend on the processing

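In the knee 15 of 18 calls held in every alternative and with each array left out; the exceptions were Slc11a2 in both comparisons with the bled knee and Steap3 against sham. Of 8 node calls 2 held throughout, Steap4 on the bled side and Steap3 on the contralateral side, and all 7 calls between tissues held. For bled against contralateral, Steap3 was also called between tissues with quantile normalization (adjusted p = 0.021). It was called as well without the sham knee C5 and sham nodes C2 and C9 (0.0358), and without any 1 of 4 of the 60 arrays. Slc11a2 was called without C5, C2 and C9 (adjusted p = 0.0375). With rat as a block the counts were the same, 6 higher and 3 lower in the bled knee against either control, and 5 and 3 higher in nodes against sham, and the block changed no call of these genes. In the bled-side node against sham 5 genes were higher, but 3 with array weights, 1 without the sham nodes C2 and C9, 4 with quantile normalization (Ftl1 lost) or with only the compared groups (Slc39a14 lost), 1 with the adipocyte covariate, and 3 to 5 with single arrays left out (3 without the bled-side node K1, K8 or K11 or the sham node C2 or C8). In the contralateral node 3 were higher, but 1 without C2 and C9, 1 with the covariate, and 1 to 3 with single arrays left out (1 without contralateral K11); 0 to 1 were lower (1 without C9). In the contralateral knee 0 to 1 were higher (1 without sham C7). For contralateral against sham, 1 gene, Steap3, differed between tissues after quantile normalization, and 0 to 1 with single arrays left out (1 without contralateral node K1).

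The differences that changed sign were small and never called in the reported model. Slc39a14 between contralateral and sham knees went to -0.000354 with array weights and -0.0252 without C5 (single arrays left out: -0.0252 to 0.166). Hamp in the bled against the contralateral knee went to -0.101 with the muscle covariate (-0.0437 to 0.0713). Between node sides, Fth1 went to -0.00296 with quantile normalization and -0.00364 with its probe sets averaged (-0.0309 to 0.0351), and Slc40a1 to 0.0171 with the adipocyte covariate (-0.167 to 0.0813). Against sham nodes, Slc11a2 on the bled side went to -0.0741 with array weights and -0.0873 without C2 and C9 (-0.102 to 0.0752), and on the contralateral side to -0.106 and -0.113 (-0.128 to 0.0498). With single arrays left out, signs also changed for Hamp between node sides (-0.183 to 0.0317) and in the bled-side node against sham (-0.00933 to 0.21), and for Slc11a1 between node sides (-0.0778 to 0.234). Between tissues they did so for Hamp (-0.00718 to 0.208) in bled against contralateral, and, in contralateral against sham, for Hamp (-0.0467 to 0.167), Fth1 (-0.015 to 0.036), Slc11a2 (-0.0175 to 0.226) and Tfrc (-0.32 to 0.0233). For Slc11a2 against sham nodes, the sham node C9 was the only single array whose omission changed the sign, on either side. Beyond this, the cause of the sign changes was not tested. Hamp in the knee was dim, which limits what a difference there can show.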
